A study of Homo sapiens with 12 samples.

Results

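The mRNAs of 6 surface or secretory membrane proteins that have been linked to senescent cells were examined in WI-38 fibroblasts: DPP4, SCAMP4, CD44, CD36, NOTCH1 and NOTCH3. They were picked as a named list of genes, not from their counts here, although results of these data were known when the list was drawn up. All 6 were found among the 57773 genes of the files, and all 6 passed the filter on low counts that left 21518 genes to test.

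The 12 libraries, in 4 groups of 3, hold bulk polyadenylated RNA of WI-38, a fibroblast line from human fetal lung with a diploid karyotype, used at low population doublings. All cells received a pool of siRNAs (25 nM) and were kept for 8 days, either in vehicle (DMSO) or in 50 µM etoposide, a topoisomerase poison that breaks DNA and drives these cells into senescence. The groups were proliferating cells with a non-targeting control (siCtrl, in DMSO), and etoposide-treated senescent cells with siCtrl, with siNTRK2, directed at the mRNA of the receptor TrkB, or with siBDNF, directed at the mRNA of its ligand BDNF. Each target was silenced with 1 pool of siRNAs in 1 cell line, proliferating cells received neither siNTRK2 nor siBDNF, and both silenced groups were compared with the same siCtrl-transfected senescent libraries.

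The library totals ranged from 31567912 to 72328151 counts. NTRK2 mRNA had 0 counts in the 3 siNTRK2 libraries and between 7 and 15 counts in the siCtrl-transfected senescent libraries, and BDNF mRNA was lower with siBDNF (log2 fold change -1.79) and higher with siNTRK2 (0.33, edgeR adjusted p = 8.35e-06). All 9 fibroblast markers examined were detected, with summed levels between 32175 and 34101 CPM in proliferating cells and between 23208 and 25006 CPM in siCtrl-transfected senescent cells, 27213 to 30122 CPM with siNTRK2 and 23991 to 24559 CPM with siBDNF (CPM, counts relative to the TMM-scaled library size). Against proliferating cells, 1 of these 9 was called higher and 7 lower in senescence with siCtrl (median log2 fold change -0.65). Against siCtrl-transfected senescent cells, 5 were called higher and 1 lower with siNTRK2 (median 0.28). With siBDNF, 1 was called higher and 6 lower (median -0.17). Of 9 genes used to check for senescence, all were called, 3 higher and 6 lower, among them CDKN1A (p21) at a log2 fold change of 1.62, GDF15 at 2.52, LMNB1 (lamin B1) at -4.20 and the proliferation marker MKI67 at -3.68. IL6, a cytokine of the senescence secretome, was lower by this test (-0.25, edgeR adjusted p = 0.0323), a call lost under several alternatives, DESeq2 among them (-0.23, adjusted p = 0.0731). With siNTRK2, CDKN1A, GDF15, LMNB1 and MKI67 moved by -0.50, -0.62, 0.62 and 1.72, and of the 9 only MKI67 passed the test with siBDNF, at 0.91. That 1 rise became 2 without siCtrl senescent replicate 2, with library totals only or in a fit of the 2 groups alone. It became 3 with the correction for transcript length and GC content. The part of these 9 genes in the changes below was not tested. In bulk RNA, a change in the number of cells that express a gene and a change in mRNA per cell cannot be told apart.

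Senescent cells remain in place for long periods and are recognised by neighbouring and immune cells through what they display, so surface proteins have been used to label, sort and target them. DPP4 (CD26) is a serine peptidase of the plasma membrane that trims dipeptides from chemokines and hormones. SCAMP4 is a secretory carrier membrane protein that travels between the Golgi, recycling vesicles and the cell surface and has been tied to the release of the senescence secretome. CD44 is the main receptor for hyaluronan, and CD36 is a scavenger receptor that takes up long-chain fatty acids and binds thrombospondin. NOTCH1 and NOTCH3 are single-pass receptors that, when a neighbouring cell presents a ligand such as JAG1, are cut by ADAM proteases and then by γ-secretase, and their released intracellular part switches on HES and HEY genes together with RBPJ. NOTCH1 activity is known to rise and fall during oncogene-induced senescence of fibroblasts and to shift the secretome.

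The promoters of DPP4, CD44 and SCAMP4 are printed because these 3 mRNAs rose in senescence and then parted, DPP4 rising further and the other 2 falling after both silencings. Each run holds the 250 bases before the start site that RefSeq gives on GRCh38.p14, read 5′ to 3′ on the gene's strand, and capitals mark every match to the GC box GGGCGG on either strand.
DPP4 (chr2:162074216-162074465, minus strand): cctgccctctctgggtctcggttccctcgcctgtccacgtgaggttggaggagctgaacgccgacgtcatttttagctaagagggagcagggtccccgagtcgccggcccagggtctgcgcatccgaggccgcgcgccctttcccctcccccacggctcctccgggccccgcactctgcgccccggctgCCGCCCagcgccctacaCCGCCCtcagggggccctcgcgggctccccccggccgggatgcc
CD44 (chr11:35138921-35139170, plus strand): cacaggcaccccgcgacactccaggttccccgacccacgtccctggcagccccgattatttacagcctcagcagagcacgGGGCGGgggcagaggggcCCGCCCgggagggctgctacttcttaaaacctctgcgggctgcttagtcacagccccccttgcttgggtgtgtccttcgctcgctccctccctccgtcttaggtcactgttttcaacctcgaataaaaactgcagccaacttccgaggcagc
SCAMP4 (chr19:1905149-1905398, plus strand): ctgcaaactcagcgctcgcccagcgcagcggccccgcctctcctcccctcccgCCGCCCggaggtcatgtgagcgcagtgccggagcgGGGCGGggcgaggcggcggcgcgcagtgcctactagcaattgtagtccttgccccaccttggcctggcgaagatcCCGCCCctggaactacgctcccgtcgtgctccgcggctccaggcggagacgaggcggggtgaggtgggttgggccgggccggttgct
The DPP4 and CD44 promoters each held 2 GC boxes, that of SCAMP4 held 3, that of NOTCH1 held 4 and that of NOTCH3 held 5. None of the 6 windows listed for CD36 held one. For comparison, 42.64% of the 35116 promoter windows of this length held at least 1 GC box. The letters TGANTCA, the site of AP-1, were found in 1 of the 6 CD36 windows and in none of the windows of the other genes, and 6.57% of all windows held them. The letters TGGGAA, the core of the RBPJ site (either strand), were found in 1 of the 6 CD36 windows and in none of the other genes' windows, and 20.85% of all windows held them. The letters TTCNNNGAA, a STAT site, were found in 1 of the 6 CD36 windows, in none of the other genes' windows and in 6.57% of all windows. These are matches of letters only, and no binding was measured.

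Compared per kb of canonical transcript, CD44 mRNA was by far the most abundant of the 6, at 497 ± 11.2 CPM per kb (SD, n = 3) in siCtrl-transfected senescent cells. SCAMP4 and DPP4 mRNAs followed at 37.7 ± 1.62 and 31.6 ± 1.40 CPM per kb, NOTCH3 at 14.6 ± 0.486 and NOTCH1 at 2.43 ± 0.245. CD36 mRNA was the lowest, at 0.595 ± 0.0181 CPM per kb. The 2 Notch receptors of the list thus lay at unlike levels, with NOTCH3 above NOTCH1 in all 12 libraries. DPP4 lay below SCAMP4 in each proliferating and each siCtrl-transfected senescent library, and above it in each siNTRK2 and siBDNF library.

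**Figure D1:**
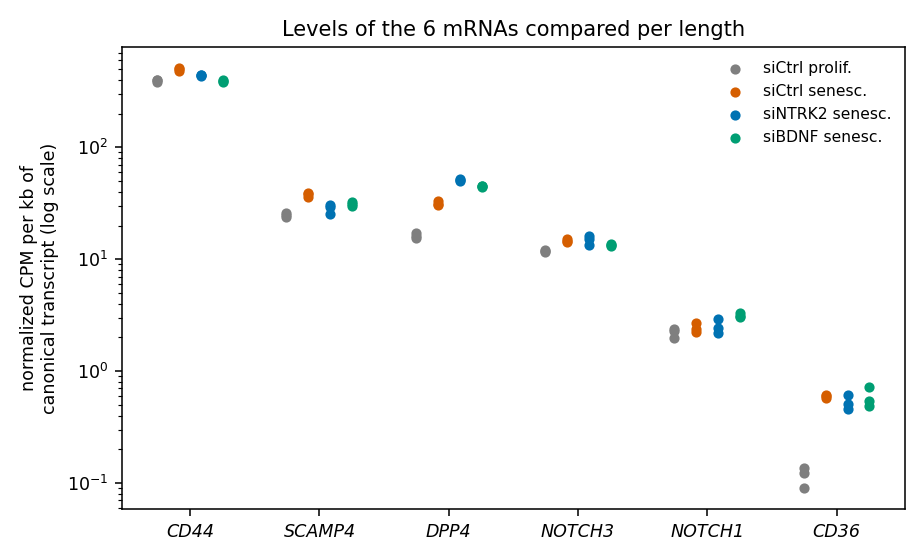
Normalized CPM per kb of canonical transcript (log axis) for the 6 mRNAs, each point 1 library and each colour a group. CD44 mRNA, at 497 CPM per kb in siCtrl-transfected senescent cells, lies above the rest and CD36 mRNA, at 0.595, below them.

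Senescent cells were first compared with proliferating cells, both with siCtrl, to ask which of the 6 mRNAs accompany senescence. DPP4, SCAMP4, CD44, CD36 and NOTCH3 mRNAs rose, from 1.23-fold for NOTCH3 to 5.17-fold for CD36, and NOTCH1 mRNA was not called. Thus 5 of 6 were called higher at an adjusted p under 0.05, the threshold used throughout, by edgeR's quasi-likelihood test with Benjamini-Hochberg adjustment over all tested genes. Among all tested genes 29.8% were called higher, 28.3% lower and 58.1% in either direction, so a call alone was common here. The libraries of both groups did not overlap for the same 5 mRNAs, and for 61.3% of all tested genes. The median log2 fold change was 0.47 over the 6 mRNAs and 0.02 over all tested genes. CD36 had an absolute log2 fold change over 1, as did 16.7% of all tested genes that were also called, and DPP4, at 0.96, passed 1 with upper-quartile scaling (1.03), the correction for length and GC content (1.15) and, barely, library totals only.

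Among senescent cells, siNTRK2 and siBDNF were then each compared with siCtrl, to ask whether the 6 mRNAs respond when the receptor or its ligand is silenced. With siNTRK2, DPP4 rose while SCAMP4 and CD44 fell, so 3 of 6 were called, and 21.1% of all tested genes were (11.1% higher and 10.0% lower). These 3 were also the mRNAs whose libraries did not overlap, as held for 32.8% of all tested genes. With siBDNF, DPP4 and NOTCH1 rose while SCAMP4 and CD44 fell, so 4 of 6 were called, and 20.5% of all tested genes were, 2227 higher (10.3%) and 2185 lower (10.2%). For these 4 and for NOTCH3, 5 in all, the libraries did not overlap, and this held for 37.3% of all tested genes. With scaling to library totals alone, the siBDNF calls over all genes split into 3139 higher and 1388 lower, and the 4 members kept their calls and directions. The medians over the 6 mRNAs were -0.07 for both siRNAs, against 0.00 for all tested genes. None of the 6 exceeded an absolute log2 fold change of 1 in either comparison, and 0.957% (siNTRK2) and 0.609% (siBDNF) of all tested genes were called beyond it. Directly between siNTRK2 and siBDNF, 3 of 6 differed and did not overlap (DPP4 and CD44 higher, NOTCH1 lower with siNTRK2), none by over 1 on the log2 scale. Of all tested genes 16.7% were called, 1903 (8.84%) higher and 1692 (7.86%) lower, 34.2% did not overlap and 1.16% were called beyond a log2 fold change of 1; with library totals only the calls split into 1349 higher and 2227 lower. Against proliferating cells, 5 of 6 were called higher with siNTRK2 (all but NOTCH1) and 5 of 6 with siBDNF (all but CD44, and with NOTCH1), with 28.2% and 30.2% of all tested genes called higher. NOTCH1 with siNTRK2 was at 0.18 in that comparison (adjusted p = 0.0935) and was called higher with library totals only (0.24), upper-quartile scaling (0.23), no filter (0.18), at least 10 counts in every library (0.22) or without siNTRK2 replicate 2 (0.27).

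**Figure D2:**
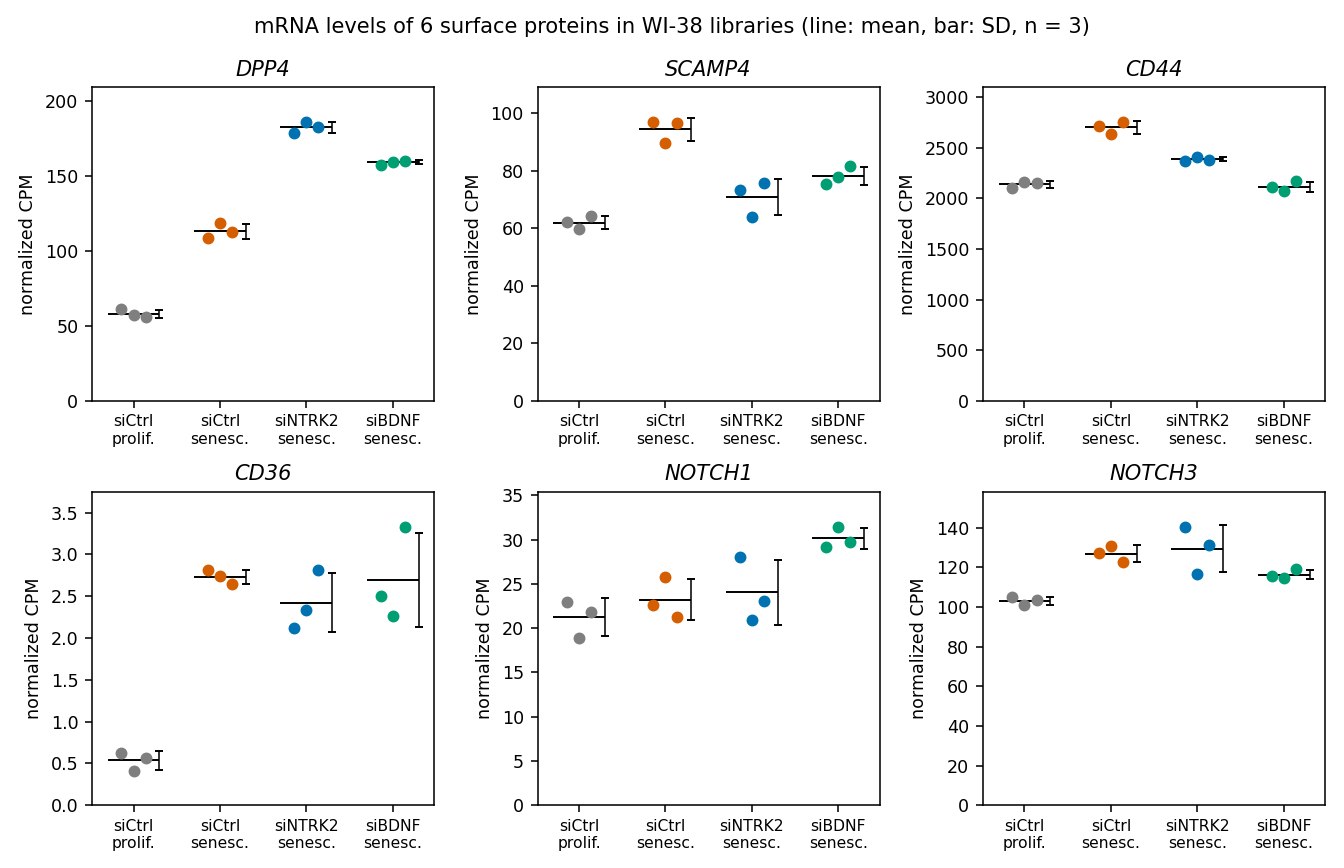
Normalized CPM of each mRNA in the 12 libraries, by group, with the mean (line) and SD (bar) of 3 libraries. For DPP4 the 4 groups are separate, rising from 57.9 to 182.5 CPM, whereas for NOTCH1 the proliferating, siCtrl senescent and siNTRK2 libraries overlap.

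DPP4 (ENSG00000197635) occupies positions 162848755 to 162930904 of chromosome 2 (GRCh37, minus strand). Its mRNA was measured at 61.0, 57.2 and 55.6 CPM in the proliferating libraries and at 108, 118 and 112 CPM in the siCtrl-transfected senescent libraries. It was 179, 186 and 183 CPM with siNTRK2 and 158, 160 and 160 CPM with siBDNF. No library of a group overlapped with any library of another group, and the order was proliferating, senescent with siCtrl, senescent with siBDNF, senescent with siNTRK2. The rise in senescence was 1.95-fold (log2 fold change 0.96 ± 0.048, the standard error (SE), edgeR adjusted p = 5.73e-15). With siNTRK2 it rose a further 1.61-fold (log2 fold change 0.69 ± 0.046 SE, adjusted p = 9.63e-11), and with siBDNF a further 1.41-fold (0.49 ± 0.046 SE, adjusted p = 2.87e-08). Among the 6408 genes called higher in senescence, 237 (3.7%) were called higher with both siRNAs as well, like DPP4, and 505 (7.88%) lower with both, like SCAMP4 and CD44. Of all tested genes these patterns hold 1.1% and 2.35%. The siNTRK2 libraries had more DPP4 mRNA than the siBDNF libraries (log2 fold change 0.20 ± 0.046 SE, adjusted p = 0.00336). Against proliferating cells, the silenced senescent cells had 3.15-fold (siNTRK2) and 2.75-fold (siBDNF) as much DPP4 mRNA.

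DPP4-DT, a noncoding RNA that starts on the opposite strand and shares 174 exonic bases with DPP4 in the annotation, moved in the same direction, by 0.61 in senescence, 0.63 with siNTRK2 and 0.49 with siBDNF, all 3 called. Its counts were between 3.04% and 4.43% of those of DPP4. The libraries were made with a stranded kit, but the sources used here do not say whether the counting used the strand, so reads of such partners may not have been told apart.

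DPP4 belongs to a family of peptidases that cut after proline, and the list considered with it also held other surface peptidases, DPP4's binding partners ADA and CAV1, and its substrate CXCL12. Of the 14 genes of that list, 7 rose and 6 fell in senescence, 5 rose and 1 fell with siNTRK2, and 4 rose and 2 fell with siBDNF. The medians were 0.13, 0.06 and 0.07. Beside this list and those that follow, 29.8% of all tested genes were called higher and 28.3% lower in senescence. With siNTRK2 these shares were 11.1% and 10.0%, and with siBDNF 10.3% and 10.2%. The 2 falls with siBDNF were 4 with the length and GC correction, and 1 with library totals only or without siBDNF replicate 1 or 2 or siCtrl senescent replicate 1 or 3. FAP, the closest relative of DPP4 and a peptidase of activated fibroblasts, had a different course: it fell from 76.6 ± 5.28 to 58.4 ± 6.08 CPM in senescence (SD, n = 3; log2 fold change -0.39, adjusted p = 1.37e-05 from edgeR). It rose with both siRNAs like DPP4, by 0.74 with siNTRK2 and 0.34 with siBDNF (adjusted p = 9.24e-09 and 0.000474). ANPEP (aminopeptidase N, CD13) also fell in senescence by 0.28 and rose with siNTRK2 by 0.33 and with siBDNF by 0.65, all 3 called. MME (neprilysin, CD10) rose by 0.18 in senescence, by 0.18 with siNTRK2 and by 0.57 with siBDNF, all 3 called. The calls of MME in senescence and with siNTRK2 were not firm: the first was lost without siCtrl senescent replicate 2 (0.14), and the second when the fit corrected for the length and GC content of transcripts (0.05), without siCtrl senescent replicate 1 (0.14) or without siNTRK2 replicate 3 (0.16). DPP7, a lysosomal dipeptidyl peptidase, rose in senescence by 0.70 and with siNTRK2 by 0.25, and had a log2 fold change of 0.02 with siBDNF (adjusted p = 0.866 from edgeR). CXCL12, a chemokine that DPP4 inactivates, fell by 0.81 in senescence and by a further 0.53 with siNTRK2, and was at 0.08 with siBDNF (adjusted p = 0.68).

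SCAMP4 (ENSG00000227500) occupies positions 1905213 to 1926012 of chromosome 19 (GRCh37, plus strand). Its mRNA was measured at 62.1, 59.7 and 64.2 CPM in proliferating cells and at 97.0, 89.7 and 96.5 CPM in siCtrl-transfected senescent cells. It was 73.2, 63.8 and 75.8 CPM with siNTRK2 and 75.3, 78.0 and 81.6 CPM with siBDNF. The siCtrl-transfected senescent libraries were above all others, and siNTRK2 replicate 2 lay within the range of the proliferating libraries. The rise in senescence was 1.52-fold (log2 fold change 0.61 ± 0.058 SE, edgeR adjusted p = 1.91e-09). SCAMP4 mRNA fell by 0.41 on the log2 scale with siNTRK2 (SE 0.058, adjusted p = 1.08e-05) and by 0.27 with siBDNF (SE 0.057, adjusted p = 0.00140). It stayed above the proliferating level by a log2 fold change of 0.20 with siNTRK2 (adjusted p = 0.00589; 0.14, adjusted p = 0.0607, without siNTRK2 replicate 3) and of 0.34 with siBDNF (adjusted p = 1.88e-05). The difference between both siRNAs was -0.14 (95% interval -0.26 to -0.02, adjusted p = 0.0935), which did not pass the test; it was called at -0.19 without siNTRK2 replicate 3 (adjusted p = 0.0414), at -0.18 with library totals only and at -0.15 with the correction for length and GC content.

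The gene ADAT3 lies on the same strand as SCAMP4 and shares 771 exonic bases with it in the annotation, so some reads could belong to either. ADAT3 had 134 to 242 counts per library and was called in none of the 4 comparisons, with log2 fold changes of 0.01 in senescence, -0.27 with siNTRK2, -0.07 with siBDNF and -0.20 between the siRNAs (edgeR adjusted p between 0.186 and 0.944).

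The SCAMP family has 5 members, of which SCAMP1, SCAMP2 and SCAMP3 are found on recycling vesicles throughout the body and SCAMP5 mainly in neurons. In senescence 4 of 5 rose and none fell (median 0.58), with siNTRK2 3 fell and none rose (median -0.27), and with siBDNF 2 fell and 1 rose (median -0.18). SCAMP3 followed SCAMP4, rising from 87.2 ± 4.17 to 130 ± 6.02 CPM in senescence (SD, n = 3; log2 fold change 0.58, adjusted p = 1.26e-09 from edgeR) and falling by 0.39 with siNTRK2 and by 0.18 with siBDNF (adjusted p = 9.29e-06 and 0.0154). The last call was lost with library totals only (-0.13), with the length and GC correction (-0.09), and without siBDNF replicate 1 (-0.18), siBDNF replicate 2 (-0.14), siCtrl senescent replicate 1 (-0.16) or siCtrl senescent replicate 3 (-0.16). SCAMP2 rose by 0.47 in senescence and fell by 0.27 with siNTRK2, and was at -0.07 with siBDNF (adjusted p = 0.408). SCAMP5, at 1.88 CPM or less in all group means, rose by 1.23 in senescence and was called with neither siRNA. SCAMP1 was at 0.10 in senescence (adjusted p = 0.344) and rose by 0.34 with siBDNF (adjusted p = 0.00486), a call lost with the length and GC correction (0.09). Directly between siNTRK2 and siBDNF, SCAMP1 was at -0.41, SCAMP2 at -0.19 and SCAMP3 at -0.20, all 3 called lower with siNTRK2, the last 2 not without siBDNF replicate 3 (-0.18 and -0.16) or siNTRK2 replicate 2 (both -0.16), and SCAMP2 also not without siBDNF replicate 1 (-0.19).

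CD44 (ENSG00000026508) occupies positions 35160429 to 35253949 of chromosome 11 (GRCh37, plus strand). Its mRNA was measured at 2098, 2164 and 2155 CPM in proliferating cells and at 2714, 2635 and 2754 CPM in siCtrl-transfected senescent cells. It was 2371, 2413 and 2381 CPM with siNTRK2 and 2110, 2068 and 2169 CPM with siBDNF. The siBDNF libraries overlapped the proliferating ones, the siNTRK2 libraries lay above both, and the siCtrl-transfected senescent libraries above all. CD44 mRNA rose 1.26-fold in senescence (log2 fold change 0.34 ± 0.038 SE, edgeR adjusted p = 3.67e-08). It fell by 0.18 on the log2 scale with siNTRK2 (SE 0.038, adjusted p = 0.00140) and by 0.35 with siBDNF (SE 0.038, adjusted p = 2.80e-07). The level with siBDNF was the lower of the 2 (log2 fold change of siNTRK2 against siBDNF 0.17, SE 0.038, adjusted p = 0.00185). Against proliferating cells, siNTRK2-transfected senescent cells were still higher, by 0.16 (adjusted p = 9.75e-04), whereas with siBDNF the difference was -0.02 (95% interval -0.09 to 0.06, adjusted p = 0.746). The sign of this last difference turned under other scalings, and it was called at 0.08 with library totals only (adjusted p = 0.0389).

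The antisense gene CD44-AS1 shares 84 exonic bases with CD44, and its counts were a steady 6.63% to 7.42% of those of CD44. It moved with CD44, by 0.42 in senescence, -0.24 with siNTRK2 and -0.46 with siBDNF, all 3 called. Splice forms of CD44 were not resolved by these gene counts.

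The hyaluronan list held enzymes that make and cut hyaluronan, other receptors, the cytoskeletal linkers of CD44 and its ligands. Of its 20 tested genes, CD44 included, 10 rose and 4 fell in senescence, 6 rose and 3 fell with siNTRK2, and 4 rose and 3 fell with siBDNF. The 10 rises were 6 in a fit of the 2 groups alone, and the 3 falls with siNTRK2 were 5 without siNTRK2 replicate 1. The medians were 0.13, 0.03 and 0.10. Osteopontin (SPP1), a secreted ligand of CD44, rose from 0.695 ± 0.122 to 6.69 ± 0.538 CPM in senescence (SD, n = 3; log2 fold change 3.27, adjusted p = 1.73e-16 from edgeR). It rose again with siBDNF, to 14.4 ± 0.308 CPM (log2 fold change 1.10, adjusted p = 9.33e-09), the reverse of CD44, and was at -0.07 with siNTRK2 (adjusted p = 0.699). HYAL3, a relative of the hyaluronidases, rose by 1.16 in senescence. CEMIP, which depolymerises hyaluronan, fell from 225 ± 3.04 to 64.8 ± 4.87 CPM in senescence (log2 fold change -1.79) and fell further with siNTRK2, by 0.53, and siBDNF, by 0.72. HMMR, a hyaluronan-binding protein of dividing cells, fell by 3.03 in senescence and rose by 1.02 with siNTRK2, as MKI67 did. The hyaluronan-binding proteoglycan VCAN was at -0.01 in senescence and rose with both siRNAs, by 0.70 and 0.66.

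CD36 (ENSG00000135218) occupies positions 79998891 to 80308593 of chromosome 7 (GRCh37, plus strand). It was counted 35, 29 and 21 times in the proliferating libraries and 158, 159 and 153 times in the siCtrl-transfected senescent libraries. In CPM these were 0.628, 0.413 and 0.568 in proliferating cells and 2.81, 2.74 and 2.65 in senescent cells. The level was 2.12, 2.34 and 2.81 CPM with siNTRK2 and 2.50, 2.26 and 3.33 CPM with siBDNF. Every senescent library was above every proliferating one, and the 3 senescent groups overlapped one another. The rise in senescence was 5.17-fold (log2 fold change 2.37 ± 0.21 SE, edgeR adjusted p = 7.54e-10). By log2 fold change CD36 ranked 1239 of 21518 tested genes from the highest. Calls beyond an absolute log2 fold change of 1 leaned upward in senescence, with 2494 higher and 1110 lower. Among genes with at least 10 counts in every library, CD36 included, they were 835 and 811. Neither siRNA moved it past the test, with a log2 fold change of -0.18 for siNTRK2 (95% interval -0.54 to 0.19, adjusted p = 0.54) and of -0.01 for siBDNF (95% interval -0.37 to 0.35, adjusted p = 0.979). The siNTRK2 value was -0.086 without siNTRK2 replicate 1, -0.30 without siNTRK2 replicate 3 and -0.30 with the length and GC correction, and was not called in any of these. At this depth, changes of a size like those of DPP4 with siNTRK2 (0.69) lie outside these intervals, whereas changes as small as those of CD44 lie within them. The smallest signal taken as detected, 3 counts, was between 0.0427 and 0.0916 CPM depending on the library.

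Markers of cell types that carry much CD36 were looked up beside it. Of 5 adipocyte markers, ADIPOQ, PLIN1, LEP and LPL had 0 counts in all proliferating libraries, and the summed level rose from at most 0.0538 CPM to between 0.603 and 1.26 CPM in siCtrl-transfected senescent cells. FABP4, the fatty acid binding protein of adipocytes, which was counted with the CD36 list and not among these 5, went the other way: its mean was 2.06 CPM in proliferating cells, 0.963 CPM in siCtrl-transfected senescent cells, 0.458 CPM with siNTRK2 and 0.262 CPM with siBDNF. The leukocyte marker PTPRC (CD45) had 0 counts in all proliferating libraries and between 46 and 60 counts in siCtrl-transfected senescent libraries. The 6 leukocyte markers summed to between 50.0 and 57.1 CPM in proliferating and between 108 and 115 CPM in siCtrl-transfected senescent cells, and most of this was CD68, a lysosomal protein that fibroblasts also make (53.0 and 109 CPM). The sum was 77.2 to 80.9 CPM with siNTRK2 and 181 to 184 CPM with siBDNF. These ranges overlapped neither each other nor that of the siCtrl-transfected senescent libraries. A sum that is mostly CD68 does not show the course of the other markers. PTPRC had 35, 45 and 30 counts with siNTRK2 and 32, 71 and 67 with siBDNF. Its highest value was 1.07 CPM in siCtrl-transfected senescent cells, 0.907 CPM with siNTRK2 and 1.05 CPM with siBDNF. The adipocyte sum was 0.466 to 0.746 CPM with siNTRK2 and 0.960 to 1.25 CPM with siBDNF, each overlapping the siCtrl-transfected senescent range. CD3E and MS4A1 were at 0 in proliferating cells. The 5 endothelial markers found summed to between 75.3 and 78.3 CPM in proliferating cells and between 34.7 and 36.5 CPM in siCtrl-transfected senescent cells, mostly TEK, which fell by 1.20, while VWF (1.21) and KDR (1.89) rose and the median of the 4 tested was 1.07. KDR had 0, 9 and 3 counts in proliferating libraries, and its call was lost without proliferating replicate 1 (1.30) or 3 (1.95) or any 1 siCtrl senescent library (1.87 to 1.91); CDH5 was at 0 in proliferating cells. The part of these other transcripts in the CD36 counts was not tested.

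Of 18 tested genes of the CD36 list, which held the scavenger receptors of class B, thrombospondins, fatty acid carriers and signalling partners, 5 rose and 7 fell in senescence, 4 rose and 2 fell with siNTRK2, and 1 rose and 4 fell with siBDNF. The 2 falls with siNTRK2 were 0 without siCtrl senescent replicate 3, and 1 with at least 10 counts in every library or without siCtrl senescent replicate 1 or siNTRK2 replicate 1 or 2. The medians were 0.05, -0.01 and 0.00. Its relatives differed in direction in senescence. SCARB1, the receptor for high-density lipoprotein, rose by 0.30 in senescence and by 0.21 with siNTRK2, the latter not called without siNTRK2 replicate 1 (0.16). SCARB2, a receptor of lysosomal membranes, fell by 0.27 in senescence and rose by 0.22 with siNTRK2 and by 0.17 with siBDNF, the last not called without siCtrl senescent replicate 1 (0.15) or replicate 3 (0.15). Thrombospondin 1 (THBS1), the classic ligand of CD36, fell from 4082 ± 27.6 to 1881 ± 15.7 CPM in senescence (SD, n = 3; log2 fold change -1.12, adjusted p = 2.31e-18 from edgeR), and THBS2 fell by 0.90. PPARG, a nuclear receptor known to switch on CD36 in fat cells and macrophages, fell by 0.39 in senescence and by 0.49 with siBDNF.

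NOTCH1 (ENSG00000148400) occupies positions 139388885 to 139440500 of chromosome 9 (GRCh37, minus strand). Its mRNA was measured at 23.0, 18.9 and 21.9 CPM in proliferating cells and at 22.6, 25.8 and 21.2 CPM in siCtrl-transfected senescent cells. It was 28.1, 20.9 and 23.1 CPM with siNTRK2 and 29.2, 31.5 and 29.8 CPM with siBDNF. Only the siBDNF libraries stood above all others, and the other 3 groups overlapped one another. In senescence the log2 fold change was 0.13 (95% interval -0.06 to 0.32, adjusted p = 0.227 from edgeR) and with siNTRK2 it was 0.05 (95% interval -0.14 to 0.24, adjusted p = 0.748). The value in senescence was 0.035 without proliferating replicate 2, 0.036 without siCtrl senescent replicate 2 and -0.0041 with the length and GC correction. With siBDNF NOTCH1 mRNA rose 1.30-fold (log2 fold change 0.38 ± 0.09 SE, adjusted p = 0.00369), and the rise was called at 0.25 with the correction for length and GC content (adjusted p = 0.00635). The difference between siNTRK2 and siBDNF was -0.33 (SE 0.09, adjusted p = 0.0136), and it was not called without siBDNF replicate 2 (-0.29), siNTRK2 replicate 2 (-0.23) or siNTRK2 replicate 3 (-0.30).

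NOTCH3 (ENSG00000074181), the Notch receptor typical of mural cells and fibroblasts, occupies positions 15269849 to 15311806 of chromosome 19 (GRCh37, minus strand). Its mRNA was measured at 105, 101 and 104 CPM in proliferating cells and at 127, 131 and 123 CPM in siCtrl-transfected senescent cells. It was 141, 117 and 131 CPM with siNTRK2 and 115, 115 and 119 CPM with siBDNF. All senescent libraries were above the proliferating ones, the siBDNF libraries were below the siCtrl-transfected senescent ones, and the siNTRK2 libraries spread across both. The rise in senescence was 1.23-fold (log2 fold change 0.30 ± 0.054 SE, edgeR adjusted p = 3.87e-05; 0.18 with the length and GC correction, still called). With siNTRK2 the log2 fold change was 0.03 (95% interval -0.08 to 0.14, adjusted p = 0.761). With siBDNF it was -0.12 (95% interval -0.24 to -0.01, adjusted p = 0.108), which did not pass the adjusted test although the groups did not overlap, as held for 37.3% of all tested genes. That difference did pass with upper-quartile scaling (-0.15), in a fit of the 2 groups alone (-0.13) and with the length and GC correction (-0.24). Against proliferating cells NOTCH3 was higher by 0.17 with siBDNF (adjusted p = 0.00753), a call lost without proliferating replicate 2 (0.15) and turned to -0.055 by the length and GC correction. The 6 mural cell markers, with which NOTCH3 is often found, summed to between 468 and 498 CPM in proliferating and between 380 and 388 CPM in siCtrl-transfected senescent cells, 2 rising and 2 falling. The sum was between 403 and 444 CPM with siNTRK2 and between 344 and 364 CPM with siBDNF. It was thus lower in senescent than in proliferating cells, whereas NOTCH3 was higher. It was also lower with siBDNF than with siCtrl, a comparison in which NOTCH3 was at -0.12 and not called. The part of these markers in the NOTCH3 values was not tested. The transcripts of NOTCH1, NOTCH3 and SCAMP4 are GC-rich (63.48%, 63.05% and 61.78% GC). Among the siNTRK2 libraries all 3 were lowest in replicate 2, while the highest was replicate 1 for the Notch receptors and replicate 3 for SCAMP4.

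**Figure D3:**
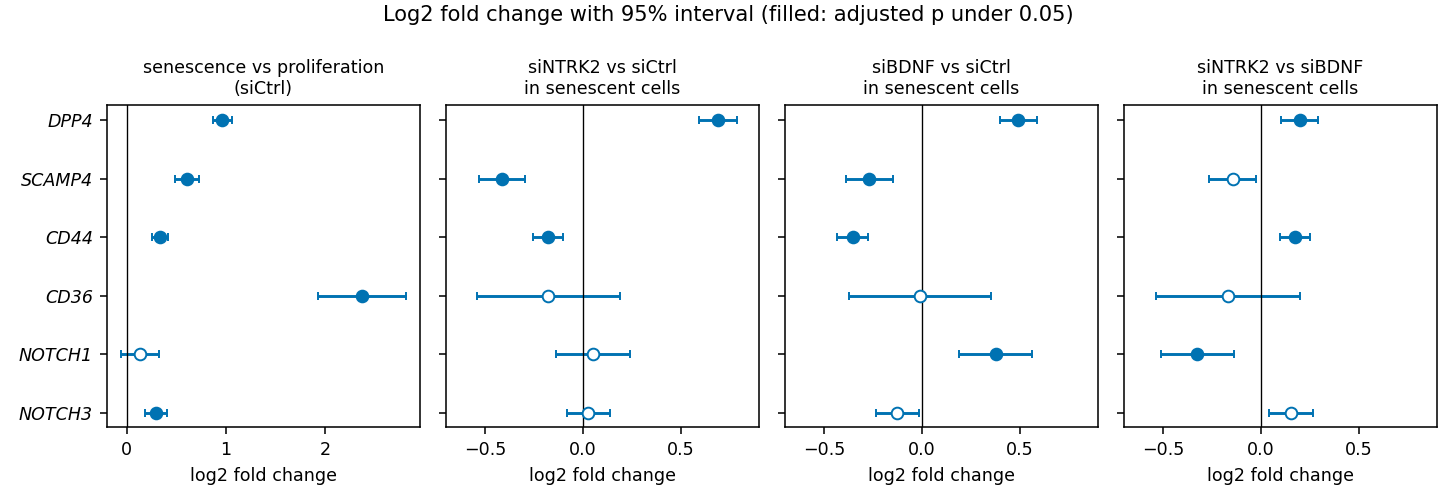
Log2 fold change of each mRNA with its 95% interval in 4 comparisons, filled where the adjusted p is under 0.05; the horizontal scale of the first panel differs from the other 3. DPP4 lies to the right in the first 3 panels, whereas SCAMP4 and CD44 lie to the right in senescence and to the left with both siRNAs.

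The rest of the Notch pathway was counted by role. Of the 4 receptors, 3 rose in senescence and none fell (median 0.29). NOTCH2 rose from 200 ± 5.65 to 242 ± 11.3 CPM (SD, n = 3; log2 fold change 0.28, adjusted p = 1.02e-05 from edgeR). It fell by 0.19 with siNTRK2 and was at 0.10 with siBDNF (adjusted p = 0.123). NOTCH4, at 1.29 CPM or less in all group means, rose by 1.05 in senescence and was called with neither siRNA. In the direct comparison NOTCH1, NOTCH2 and NOTCH4 were lower with siNTRK2 than with siBDNF, by 0.33, 0.29 and 0.88, while NOTCH3 was at 0.15 (adjusted p = 0.0506). The NOTCH3 difference was called by DESeq2, with upper-quartile scaling, with no filter, in the fit of 2 groups, with the length and GC correction (0.20) and without siNTRK2 replicate 2 (0.23), and was at 0.091 without siNTRK2 replicate 1. The NOTCH4 difference (adjusted p = 0.0481) was not called by DESeq2 (adjusted p = 0.0509) or with upper-quartile scaling (0.0503), in a fit of the 2 groups alone (0.0653), or without siBDNF replicate 1 (-0.72), siBDNF replicate 2 (-0.83), siNTRK2 replicate 2 (-0.77) or siNTRK2 replicate 3 (-0.63).

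Of 7 ligand genes, 3 rose and 1 fell in senescence (median 0.32), 2 rose and none fell with siNTRK2 (median 0.48), and 1 rose and 1 fell with siBDNF (median 0.13). Over all tested genes, 58.1%, 21.1% and 20.5% were called in either direction in these comparisons. JAG1, the main ligand passed between senescent and neighbouring cells, rose from 24.6 ± 0.656 to 42.5 ± 2.03 CPM in senescence (SD, n = 3; log2 fold change 0.79, adjusted p = 3.77e-12 from edgeR) and by a further 0.29 with siNTRK2. JAG2, near 1 CPM in senescent cells, rose by 1.48 in senescence, by 0.82 with siNTRK2 and by 1.01 with siBDNF, and its siNTRK2 call was lost without siCtrl senescent replicate 3 (0.70) or siNTRK2 replicate 3 (0.72). DLL4, a ligand of blood vessel sprouts, fell from 55.5 ± 1.73 to 18.5 ± 0.267 CPM in senescence (log2 fold change -1.58, adjusted p = 7.83e-17) and by a further 0.27 with siBDNF.

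Of 13 tested genes for maturation and cleavage of the receptors, 5 rose and 4 fell in senescence, 2 rose and 4 fell with siNTRK2, and 2 rose and 0 fell with siBDNF (3 fell with the length and GC correction and 1 by DESeq2); the medians were 0.04, -0.04 and 0.01. The 2 rises with siNTRK2 were 1 in 7 alternatives, among them the omission of siCtrl senescent replicate 1 or 3 or siNTRK2 replicate 2 or 3, and the 2 with siBDNF were 1 without siCtrl senescent replicate 1. ADAM10, 1 of those called with siNTRK2 (0.14), was at -0.059 with the length and GC correction. NCSTN, the γ-secretase subunit nicastrin, rose by 0.54 in senescence. ADAM10, which makes the first cut after ligand binding, fell by 0.52, and LFNG, a glycosyltransferase that tunes which ligand a receptor answers, fell by 1.99. FURIN, which cuts the receptors during transport to the surface, rose with siNTRK2 by 0.25 and with siBDNF by 0.37. Of 8 genes of the transcription complex and of receptor turnover, 2 rose and 3 fell in senescence, 3 rose and none fell with siNTRK2, and 5 rose and none fell with siBDNF; the medians were -0.06, 0.16 and 0.25. The 5 calls with siBDNF, where 10.3% of all tested genes were called higher, fell to 3 with the length and GC correction (without RBPJ and MAML2) and to 3 without siBDNF replicate 1 (without MAML2 and FBXW7), and the 2 rises in senescence became 5 with that correction. The coactivator MAML3 rose by 0.90 in senescence, by 0.49 with siNTRK2 and by 0.72 with siBDNF, MAML1 fell by 0.50 and then rose by 0.34 and 0.31, and NUMB, which antagonises the receptors, rose by 0.65 in senescence.

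Of 7 target genes, 5 were tested; 2 rose and 1 fell in senescence, 0 were called with siNTRK2 (0 at an unadjusted edgeR p under 0.05 and 0 by DESeq2) and 1 rose with siBDNF (medians 0.51, -0.06 and 0.35). The 2 rises in senescence were 1 with the length and GC correction, or without proliferating replicate 1 or 3 or siCtrl senescent replicate 1 or 3. HEY1 was the target called with siBDNF: its mRNA was 2.45 ± 0.513 CPM in proliferating cells, 3.55 ± 0.398 CPM in siCtrl-transfected senescent cells, 3.10 ± 0.492 CPM with siNTRK2 and 5.10 ± 0.139 CPM with siBDNF (SD, n = 3). The log2 fold changes were 0.52 in senescence, -0.20 with siNTRK2 and 0.52 with siBDNF (edgeR adjusted p = 0.00618, 0.397 and 0.0123; the last 0.0784, at 0.43, without siCtrl senescent replicate 3). HES1 fell by 0.54 in senescence (adjusted p = 0.00323) and was called with neither siRNA. NOTCH1 and HEY1 mRNAs thus were both higher with siBDNF than with siNTRK2 (HEY1 difference -0.72, adjusted p = 0.00118), as given side by side; protein cleavage was not measured.

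**Figure D4:**
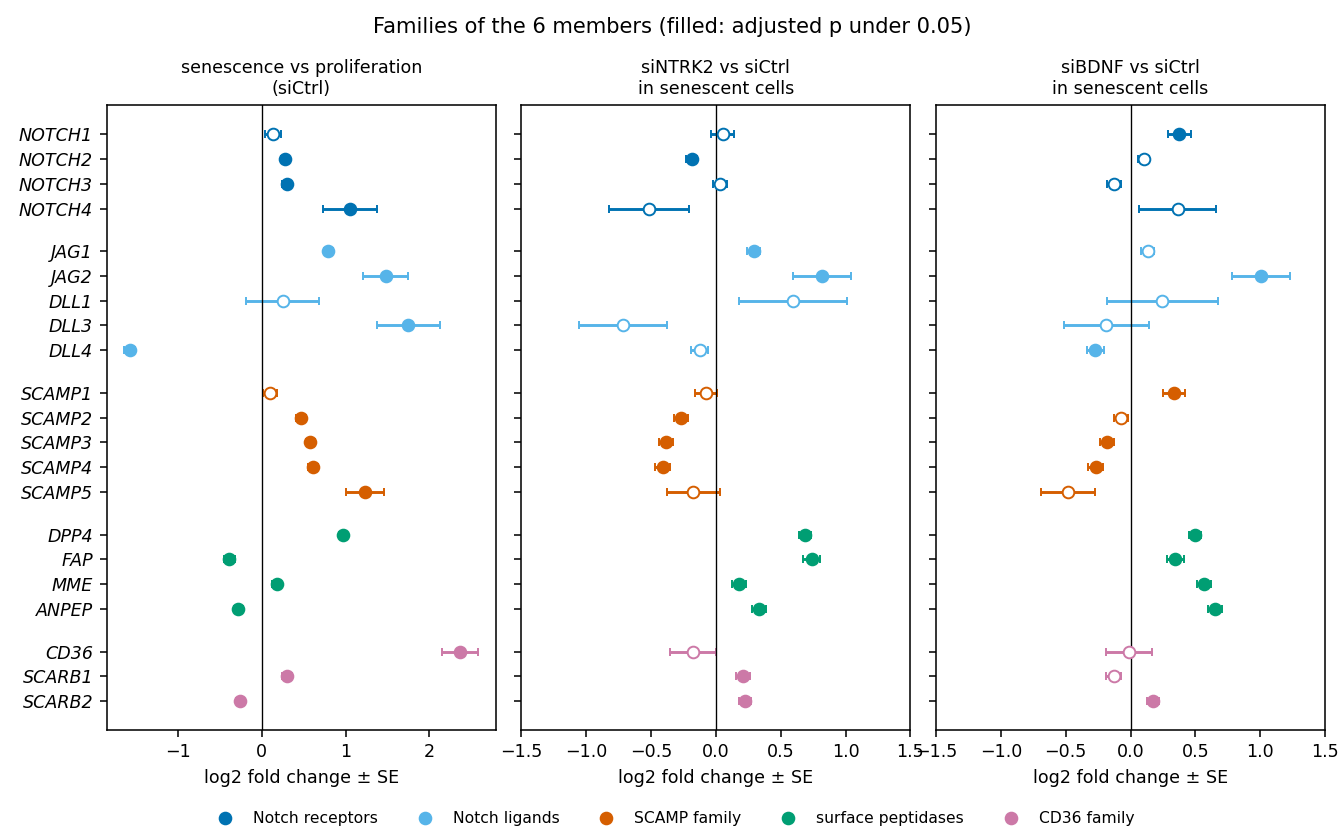
Log2 fold change ± SE for Notch receptors and ligands, the SCAMP family, surface peptidases and the CD36 family in 3 comparisons, filled where the adjusted p is under 0.05; the scale of the first panel differs. DPP4 lies to the right in all 3 panels (0.96, 0.69 and 0.49), and SCAMP4 to the right in the first and to the left in the others (0.61, -0.41 and -0.27).

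Other membrane proteins reported on senescent cells were counted for comparison. Of 20 such genes, 11 rose and 5 fell in senescence (median 0.26), 4 rose and 3 fell with siNTRK2 (median 0.05), and 3 rose and 3 fell with siBDNF (median -0.01). Calls in either direction over all tested genes were 58.1%, 21.1% and 20.5%. The 4 rises with siNTRK2 were 2 without siCtrl senescent replicate 1 or siNTRK2 replicate 3, and the 3 rises with siBDNF were 6 with library totals only. The decoy death receptor TNFRSF10D, at 659 ± 5.66 CPM in siCtrl-transfected senescent cells (SD, n = 3), rose by a log2 fold change of 1.42, and ULBP2, a ligand of natural killer cells, by 1.52. Neither moved past the test with siNTRK2 or siBDNF (log2 fold changes between -0.05 and 0.06; edgeR adjusted p between 0.366 and 0.989). GPNMB, a glycoprotein of lysosomes and the surface, rose by 0.84 in senescence, rose by 0.89 with siNTRK2 like DPP4, and fell by 0.26 with siBDNF. ICAM1 fell by 0.93 with siNTRK2 and was at -0.01 with siBDNF (adjusted p = 0.954).

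The genes whose levels most resembled each of the 6 over the 12 libraries were found by Pearson's r of log2(CPM + 0.5) among 13874 genes with a mean of at least 1 CPM. The 12 points fall into 4 groups, so r mostly reflects group means and is given as a description only. For DPP4 the highest included CTSA (r = 0.995) and CCND2 (0.994), and 663 genes had r over 0.9. For SCAMP4 they were AGPAT1 (0.981), BBLN (0.978) and its relative SCAMP3 (0.976). For CD44 they were WFDC1 (0.982), its antisense partner CD44-AS1 (0.980) and PSG5 (0.976). CD36, called only in comparisons with proliferating cells, had 1170 genes over 0.9, led by FBXO2 (0.989), PIGG and MACO1 (both 0.986). NOTCH1 had only 10 such genes, led by JUN (0.967), TMEM132A (0.938) and CIC (0.924), and NOTCH3 had 36, led by PLBD2 (0.967), TRPM4 (0.944) and INF2 (0.943). Among the 6 themselves, r ranged from -0.32 (CD44 with NOTCH1) to 0.87 (DPP4 with CD36).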

How the data were processed

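The deposited values are counts: whole numbers of reads per Ensembl gene, made by the authors from stranded paired-end libraries; the submitters' processing notes name Cutadapt, STAR 2.4.0j, featureCounts 1.6.4 and the build hg19 (GRCh37), 1 file per library and without normalization. A table of gene names paired 55538 of 57773 identifiers with a symbol. Positions, transcript lengths and overlaps were read from an annotation lifted to GRCh37 that is newer than the authors' own; promoters came from RefSeq on GRCh38.p14.

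The tests were run with edgeR 4.0.16 under R 4.3.3: TMM scaling, filterByExpr over the 4 groups (minimum count 10), 1 term per group, all 12 libraries in 1 quasi-likelihood fit, so that the groups shared the estimate of spread, and Benjamini-Hochberg adjustment over 21518 genes. DESeq2, the tool of the study's methods, was run as an alternative in version 1.42.0, not the version used there. A gene was called at an adjusted p under 0.05. Standard errors were derived from the quasi-likelihood F statistic, and 95% intervals use the fit's degrees of freedom. The fits were tested on simulated counts. The study states in general terms that experiments were repeated independently, with all groups of an experiment kept together. The labels number the libraries 1 to 3 without tying a number to such an experiment or culture, so p-values measure the spread between these libraries, which may be technical. Library pairs of a group differed by more than sampling noise, at a chi-square per gene of 3.92 to 13.6 where sampling alone gives about 1. In siCtrl-transfected senescent cells the pairs with replicate 2 were at 10.7 and 12.0, and pair 1-3 at 4.83. With siNTRK2 the pairs with replicate 2 were at 13.6 and 9.96, and pair 1-3 at 5.98. In proliferating cells the pairs with replicate 3 were at 11.4 and 9.07, and pair 1-2 at 6.21. The siBDNF pairs were between 3.92 and 6.08.

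The 6 genes and the 18 gene lists were chosen with earlier results of these data known. Named from each list, per comparison, were at most the 2 largest rises and falls among called genes with a mean of at least 1 CPM, besides relatives of the 6 by family, genes that overlap them, marker genes and the 3 genes most alike (1 of these is not reported here). The alternatives were other scalings, filters and tests, the replicate number as a block, the 2 groups alone and leaving out each library; the correction for transcript length and GC content (a smooth offset) and the comparisons of silenced senescent with proliferating cells were added once results had been seen. Floors and intervals cover counting error or library spread only, as reads carried no molecular identifiers.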

Additional observations from a re-analysis of the deposited data

Results flagged for a closer look

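For 3 of the 6 mRNAs the effect of siNTRK2 in senescent cells differed from that of siBDNF by edgeR's quasi-likelihood test of the difference itself, in which the siCtrl libraries cancel; of all genes tested, 16.7% were called in this comparison and 34.2% had groups that did not overlap. DPP4 mRNA was higher with siNTRK2 than with siBDNF by a log2 fold change of 0.20 (adjusted p = 0.00336), in 3 of 3 libraries above all 3 siBDNF libraries. CD44 mRNA was higher with siNTRK2 by 0.17 (adjusted p = 0.00185), again in 3 of 3 libraries. NOTCH1 mRNA was lower with siNTRK2 (log2 fold change -0.33, adjusted p = 0.0136), in 3 of 3 libraries, and this call was lost when siBDNF replicate 2 (-0.29), siNTRK2 replicate 2 (-0.23) or siNTRK2 replicate 3 (-0.30) was left out. Groups of 3 libraries were not tested for outlying samples.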

How the results depend on the processing

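Over the 6 mRNAs and 6 comparisons, 299 values under another scaling, filter, test or correction kept their direction and their side of the threshold, 15 passed the test only under the alternative and 10 turned sign, 1 of them called as reported (NOTCH3 with siBDNF against proliferating cells). With 1 library left out, 201 values kept both, 5 lost and 3 gained the call, and 7 turned sign. The causes were not tested. The calls of DPP4, SCAMP4, CD44, CD36 and NOTCH3 in senescence were kept under every alternative run. So were those of DPP4, SCAMP4 and CD44 with both siRNAs, and that of NOTCH1 with siBDNF.

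With the correction for length and GC content, NOTCH1 was at -0.0041 in senescence, -0.024 with siNTRK2 and -0.028 with siNTRK2 against proliferating cells. NOTCH3 was then at -0.036 with siNTRK2, -0.24 with siBDNF (adjusted p = 1.62e-05), 0.20 between the siRNAs and -0.055 with siBDNF against proliferating cells, SCAMP4 at -0.15 between the siRNAs and CD44 at 0.025 with siBDNF against proliferating cells. With library totals only, CD36 was at 0.045 with siBDNF, SCAMP4 at -0.18 between the siRNAs and CD44 at 0.078 with siBDNF against proliferating cells. The last was 0.023 with upper-quartile scaling and 0.027 with at least 10 counts in every library. NOTCH3 with siBDNF was called at -0.15 with upper-quartile scaling and at -0.13 in the fit of 2 groups. Between the siRNAs NOTCH3 was called at 0.16 with upper-quartile scaling, with no filter and in the fit of 2 groups, and at 0.15 by DESeq2. Requiring an absolute log2 fold change over 1 left 3604 calls in senescence, 206 with siNTRK2, 131 with siBDNF and 250 between the siRNAs.

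Same-numbered libraries of different groups did not deviate together (mean r 0.00184, from -0.0396 to 0.0270), and the labels do not say that a number marks a shared experiment, so the libraries were not treated as paired. A replicate block changed 1 call of the 6 mRNAs, SCAMP4 between the siRNAs (-0.15, adjusted p = 0.0472), and gave 12488, 4553, 4434 and 3621 calls in the 4 main comparisons.

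With each library left out in turn, the calls ranged from 2943 to 4804 with siNTRK2, from 2914 to 4651 with siBDNF and from 2286 to 3249 between the siRNAs. The 4804 and 4651 calls were those without siCtrl senescent replicate 2, against 4548 and 4412 with all libraries. NOTCH1 ranged from 0.035 to 0.18 in senescence and from -0.079 to 0.15 with siNTRK2, NOTCH3 from -0.036 to 0.11 and CD36 from -0.30 to -0.086 with siNTRK2, and CD36 from -0.21 to 0.12 with siBDNF. Between the siRNAs, CD36 ranged from -0.29 to 0.031, SCAMP4 from -0.19 to -0.068, NOTCH1 from -0.45 to -0.23 and NOTCH3 from 0.091 to 0.23. Among smaller list counts, the 1 fall of the DPP4 list with siNTRK2 ranged up to 2, the 1 rise of the CD36 list with siBDNF from 0 to 2 and the 1 rise of the Notch ligands with siBDNF up to 2. Depth limits CD36, with 21 to 35 counts per proliferating library, more than the other 5 mRNAs.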
